A study of Homo sapiens with 18 samples.

Results

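16D is a castration-resistant prostate cancer cell line, and the comparison described here is that of cells labelled with guide RNA 2 against OGDHL with cells labelled with a control guide RNA, both kept in enzalutamide. The members were the 6 libraries labelled with those guides and the drug, 3 with guide 2 and 3 with the control guide, of 18 libraries in the series. The control guide is labelled AAVS, the usual name of a safe-harbour site within PPP1R12C, so the control cells carried a guide too. All 6 libraries came from cells that had spent 6 weeks in 10 µM enzalutamide, an antiandrogen drug. The other libraries were 3 with guide 1 against OGDHL in enzalutamide, which share the control libraries of this comparison, and 3 each with guide 2, guide 1 and the control guide in DMSO vehicle. How the guides and the nuclease were delivered, and whether the cells were a pool or a clone, is not stated in the labels. The labels do not state that replicates came from separate cultures, and the p-values therefore cover the spread among these libraries alone, which may be technical. The measurement was 1 TPM value (transcript abundance scaled for gene length and library total) per gene and library, and since that unit does not carry sequencing depth, the depth behind each value was unknown. After rows of the mitochondrial genome and rows with no gene name were removed and each library was rescaled to the same total, 14792 of 26863 genes reached 1 TPM in at least 3 of the 6 libraries and were tested.

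OGDHL encodes a relative of OGDH, the subunit of the 2-oxoglutarate dehydrogenase complex that oxidises 2-oxoglutarate to succinyl-CoA in the tricarboxylic acid cycle. 2-oxoglutarate is also the co-substrate of a large family of dioxygenases, among them histone and DNA demethylases. Androgen induces genes such as KLK3 in luminal prostate cells, and prolonged loss of the androgen signal is known to be followed in some tumours by loss of luminal identity and gain of neuroendocrine features. p53 activates genes that stop the cell cycle, such as CDKN1A; p21, its product, holds back the kinases whose activity allows the genes of DNA replication and mitosis to be expressed.

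Replicates of a group correlated at 0.995 to 0.996 with guide 2 and at 0.994 to 0.995 with the control guide (lowest and highest Pearson r over the tested genes), against 0.991 to 0.992 between the groups. Named rows at 0 TPM numbered 1883, 1782 and 1751 in the guide 2 libraries and 2310, 2366 and 2438 in the control libraries. The groups did not overlap (exact two-sided permutation p = 0.1, the smallest that 3 against 3 can give). Mitochondrial transcripts took 59.4% ± 2.64 of TPM with guide 2 and 55.8% ± 5.01 with the control guide (SD, n = 3 each, exact permutation p = 0.4). The 10 most abundant genes took 15.03% ± 0.129 of the rescaled total with guide 2 and 14.35% ± 0.2502 with the control guide (SD, n = 3 each), also without overlap (exact permutation p = 0.1). In vehicle, the guide 2 libraries differed from all others in the series, with 778 to 872 named rows at 0 and CDKN1A at 2612 ± 60.2 TPM against 56.0 ± 1.09 TPM in the control libraries in vehicle. Luminal markers summed to 4801 to 4877 TPM with guide 2, to 6023 to 6272 TPM with guide 1 and to 4166 to 4318 TPM with the control guide in enzalutamide, and 7 of 9 basal markers stayed under 1 TPM in every library of each group. Markers of other cell types were low: endothelial markers summed to at most 0.433 TPM with guide 2 and 0.259 TPM with the control guide, and leukocyte markers to 2.09 to 2.42 TPM with guide 2 and 1.25 to 2.03 TPM with the control guide. Fibroblast markers summed to 13.99 to 15.02 TPM with guide 2 and 10.52 to 11.99 TPM with the control guide, of which COL1A1, a collagen, made up most, and their part in any result was not tested.

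OGDHL itself (chr10:49734643-49762379, minus strand, GRCh38) was lower with guide 2, but its transcript was still present. It had 5.20, 5.38 and 5.36 TPM in the guide 2 libraries, against 9.20, 9.81 and 9.23 TPM in the control libraries. Every guide 2 library lay below every control library, and the level was 0.565 times that of controls (log2 change −0.72, SE 0.05, limma adjusted p = 4.3e-05). With guide 1 it had 3.04 ± 0.243 TPM, so the level with guide 2 lay between those with guide 1 and with the control guide, and guide 2 exceeded guide 1 by 0.65 on the log2 scale (limma adjusted p = 1.2e-05). Under vehicle the guide 2 level was the higher one: OGDHL had 8.14 ± 0.618 TPM with guide 2 and 5.61 ± 0.116 TPM with the control guide. A guide that cuts a coding exon changes the protein and need not lower the transcript, so the RNA level is only a partial check of the label. Of the 8 tested genes nearest to OGDHL on the chromosome, 4 on each side, MAPK8, ERCC6, PARG, TIMM23B, AGAP6, RHEBP2 and BMS1P2 were not called and WASHC2A differed by 0.12 (limma adjusted p = 0.047), a difference lost in 11 of 17 alternative settings. OGDH had 30.8 ± 0.400 TPM with guide 2 and 26.8 ± 0.950 TPM with the control guide (log2 change 0.19, limma adjusted p = 0.0029), and PPP1R12C, the host of the control site, had 5.76 ± 0.319 TPM with guide 2 and 5.07 ± 0.0696 TPM with the control guide.

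**Figure D1:**
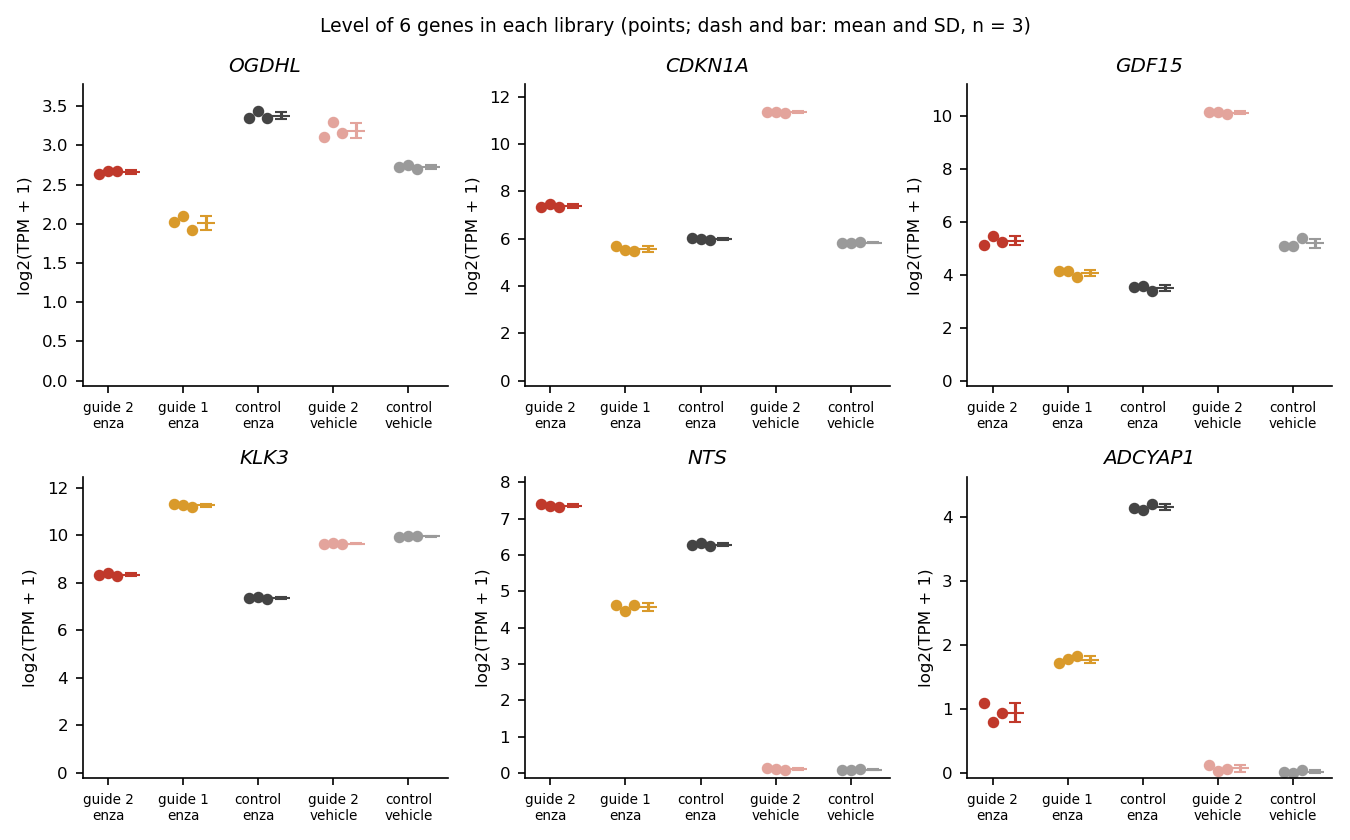
Level of 6 genes as log2(TPM + 1) in each library of 5 groups; points are libraries, and the dash and bar to their right are the mean and SD (n = 3). OGDHL and ADCYAP1 lie below the control libraries with guide 2 in enzalutamide, the other 4 genes lie above them, and CDKN1A and GDF15 are far higher in the libraries labelled guide 2 in vehicle.

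Many genes differed between guide 2 and the control guide, nearly all by small amounts. limma with Benjamini-Hochberg adjustment over the 14792 genes called 4452 (30.1%) at an adjusted p under 0.05, of which 2849 rose (19.3%) and 1603 fell (10.8%). Of these, 32 rose and 12 fell by 2-fold or more, while 2580 of the rises and 1524 of the falls were under 0.5 in log2(TPM + 1), a scale on which changes of genes near 0 appear smaller than they are. The median of all tested genes was 0.03. The balance of directions depended on scaling: with median-of-ratios scaling 2220 rose and 2384 fell, and with quantile normalization 2256 rose and 2361 fell. Without the rescaling, that is with TPM as deposited and mitochondrial and unnamed rows kept in the total, 241 genes rose and 292 fell, and the median of all tested genes was −0.07. Replicates of the groups did not overlap in 47.9% of all tested genes.

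**Figure D2:**
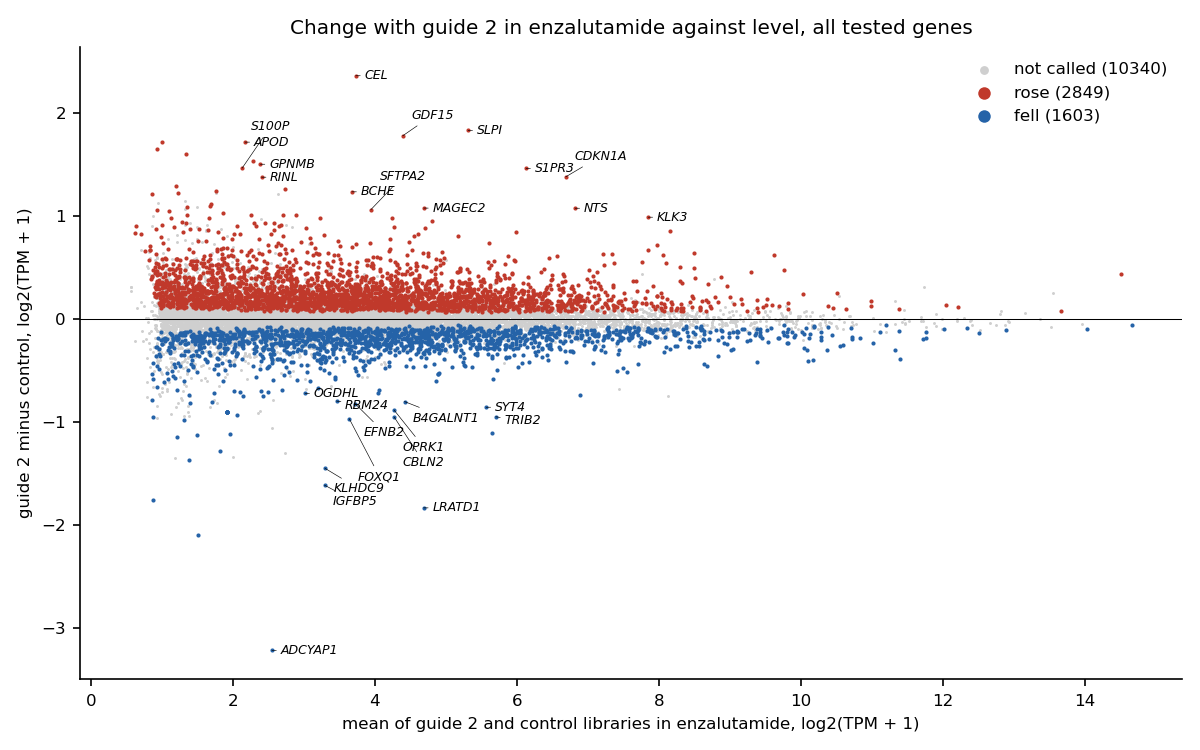
Difference between guide 2 and the control guide in enzalutamide on the log2(TPM + 1) scale against the mean level of both groups, for 14792 tested genes; red points rose (2849), blue points fell (1603) and grey points were not called. Protein-coding genes with the largest changes are labelled, with CEL at the top and ADCYAP1 at the bottom.

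The 15 largest rises, among called genes that reached 5 TPM in either group, lay between 1.06 and 2.36 on the log2 scale. CEL (chr9:133061978-133071861, plus strand), a secreted lipase, had 28.9, 31.8 and 27.1 TPM with guide 2, against 5.04, 4.71 and 4.86 TPM with the control guide. This was 6.01 times the control level (log2 change 2.36, SE 0.09, limma adjusted p = 5.6e-06), and guide 1 had 4.10 ± 0.641 TPM. SLPI (chr20:45252239-45254564, minus strand), a secreted inhibitor of serine proteases, had 70.7, 79.4 and 72.7 TPM with guide 2, against 19.9, 20.3 and 20.1 TPM with the control guide (log2 change 1.83, limma adjusted p = 7.0e-07). S1PR3 (chr9:88990863-89005010, plus strand), a receptor for sphingosine-1-phosphate, had 115, 119 and 112 TPM with guide 2, against 42.9, 39.2 and 41.7 TPM with the control guide (log2 change 1.46). In none of the 3 genes did the groups overlap, which the selection of the 15 required. SLPI and S1PR3 were lower with guide 1, at 13.9 ± 0.473 and 26.5 ± 1.09 TPM, than with the control guide. GPNMB, a transmembrane glycoprotein, had 7.84 ± 0.624 TPM with guide 2 and 2.11 ± 0.0545 TPM with the control guide. APOD, a lipid-binding lipocalin, and S100P, a calcium-binding protein, rose by 1.72 and 1.47 on the log2 scale to 7.20 and 6.29 TPM. BCHE, which encodes butyrylcholinesterase, rose by 1.24, and MAGEC2, a cancer-testis antigen, by 1.08. RINL, a protein of the Ras and Rab interactor family, rose by 1.38 to 7.55 TPM. SFTPA2, a surfactant protein, rose by 1.06, but has a near-identical copy with which reads can be confused. The others of the 15 were the p53 targets GDF15 and CDKN1A, the peptide gene NTS, 1 long non-coding RNA and 1 pseudogene.

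The 15 largest falls, among called genes that reached 5 TPM in either group, lay between −3.21 and −0.74 on the log2 scale. ADCYAP1 (chr18:904943-912172, plus strand), which encodes the neuropeptide PACAP, had 1.14, 0.741 and 0.918 TPM with guide 2, against 16.7, 16.3 and 17.6 TPM with the control guide (log2 change −3.21, SE 0.07, limma adjusted p = 7.0e-07). It was the largest change in the comparison, and its level was 2.42 ± 0.132 TPM with guide 1 and at most 0.0911 TPM in every guide 2 or control library in vehicle. LRATD1 had 12.73, 12.39 and 12.96 TPM with guide 2, against 48.8, 45.8 and 48.7 TPM with the control guide (log2 change −1.83). IGFBP5 (chr2:216672105-216695525, minus strand), a binding protein for insulin-like growth factors, had 5.09, 4.46 and 4.31 TPM with guide 2, against 16.8, 14.8 and 16.9 TPM with the control guide (log2 change −1.61). All of these lay below the control libraries in every guide 2 library, which the selection of the 15 required. With guide 1, LRATD1 and IGFBP5 had 15.2 and 5.10 ± 0.225 TPM, also below the control libraries, which both guides share. TRIB2, a pseudokinase of the Tribbles family, had 36.6 ± 0.394 TPM with guide 2 and 71.6 ± 3.42 TPM with the control guide (log2 change −0.95). FOXQ1, a forkhead transcription factor, fell by 0.97 and OPRK1, the kappa opioid receptor, by 0.88. SYT4, a synaptotagmin, fell by 0.86 to 34.4 TPM, CBLN2, a synaptic organiser, by 0.95 to 12.9 TPM, and EFNB2, an ephrin ligand, by 0.82. B4GALNT1, the synthase of gangliosides GM2 and GD2, and RBM24, an RNA-binding protein, each fell by 0.80, and KLHDC9 fell by 1.45. RNY3, a short non-polyadenylated RNA that an mRNA kit measures poorly, had at most 0.748 TPM with guide 2 and 2.02, 3.41 and 14.4 TPM with the control guide, and its call was lost without guide 2 library 1 (limma adjusted p = 0.056) or 3 (limma adjusted p = 0.075). The remaining 2 of the 15 were pseudogenes.

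Targets of p53 were higher with guide 2. Of 27 listed targets, all of them tested, 23 rose and 1 fell, with a median change of 0.32 against 0.03 over all tested genes, of which 19.3% rose. CDKN1A (chr6:36676460-36687339, plus strand), which encodes the cyclin-dependent kinase inhibitor p21, had 162, 177 and 159 TPM with guide 2, against 65.3, 62.4 and 61.5 TPM with the control guide. This was 2.63 times the control level (log2 change 1.38, SE 0.06, limma adjusted p = 9.4e-06). GDF15 (chr19:18374731-18389176, plus strand), a stress cytokine of the TGF-beta family, had 34.2, 43.4 and 37.0 TPM with guide 2, against 10.71, 11.03 and 9.39 TPM with the control guide (log2 change 1.78, limma adjusted p = 2.1e-05). Both genes were among the largest rises above, for which groups without overlap were a condition. TP53I3, a quinone oxidoreductase, had 9.53 ± 0.725 TPM with guide 2 and 4.22 ± 0.452 TPM with the control guide, and FDXR, ferredoxin reductase, had 22.3 TPM with guide 2 and 13.7 TPM with the control guide. MDM2, the ubiquitin ligase that degrades p53, rose by 0.33 to 54.3 TPM, against 42.9 TPM in controls, and the apoptosis genes BAX, BBC3 and FAS by 0.22, 0.30 and 0.22. RRM2B, AEN and SESN1 were not called, at 0.14, 0.09 and 0.01. PMAIP1, which encodes the apoptosis activator NOXA, fell by 0.56, with 7.92 TPM with guide 2 and 12.1 TPM with the control guide. Without rescaling, 4 of the 27 rose.

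Genes of the cell cycle were lower with guide 2, by small and similar amounts. Of 28 genes of G2 and mitosis, all tested, none rose and 27 fell, with a median of −0.26 and a range from −0.42 to −0.14, against 10.8% of all tested genes that fell. MKI67, a proliferation marker, was the one not called, at −0.19. CDK1 (chr10:60778331-60794852, plus strand), the kinase that starts mitosis, had 87.6, 89.8 and 89.1 TPM with guide 2, against 116.6, 115.7 and 125.0 TPM with the control guide (log2 change −0.42, SE 0.04, limma adjusted p = 0.00025). BIRC5, which encodes survivin, a chromosome passenger protein, had 73.4, 74.0 and 76.3 TPM with guide 2, against 99.9, 97.1 and 97.9 TPM with the control guide. Neither gene had overlapping groups. KIF23, a kinesin of cytokinesis, and UBE2C, a ubiquitin-conjugating enzyme of mitotic exit, fell by 0.40 and 0.37. Of 30 genes of G1/S and DNA replication, 25 fell and 1 rose, with a median of −0.26. CDC6, which loads the replicative helicase, fell by 0.38 to 32.6 TPM, against 42.8 TPM in controls, and the helicase subunits MCM3 and MCM4 by 0.33 and 0.31. GINS2, a subunit of the active helicase, fell by 0.32. CCND1, cyclin D1, was the member that rose, by 0.11, and CCNE1 and POLE stood at −0.01 and 0.02. In RNA from whole cultures, fewer cycling cells and less RNA of these genes per cell cannot be told apart. On the deposited TPM scale 9 of the 28 genes of G2 and mitosis and 5 of the 30 of G1/S fell.

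The promoters of these falling lists carry known elements, shown here because the members moved together. The windows are from RefSeq, GRCh38.p14, of 300 bases around each gene's start, and the motifs were picked after the changes were known and searched on both strands. The CHR element of G2 and mitosis genes was searched as TTTGAA, E2F sites of G1/S genes as TTTCCCGC, TTTGGCGC and TTTCGCGC, and the endoplasmic reticulum stress element (ERSE) as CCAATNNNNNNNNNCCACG, which contains a CCAAT box. Capitals mark the matches, 1 each for KIF23, CDC6 and HSPA5 and 2 for MCM3. KIF23 is at chr15:69414099-69414398 on the plus strand, CDC6 at chr17:40287629-40287928 on the plus strand, MCM3 at chr6:52284693-52284992 on the minus strand and HSPA5 at chr9:125241294-125241593 on the minus strand.
KIF23: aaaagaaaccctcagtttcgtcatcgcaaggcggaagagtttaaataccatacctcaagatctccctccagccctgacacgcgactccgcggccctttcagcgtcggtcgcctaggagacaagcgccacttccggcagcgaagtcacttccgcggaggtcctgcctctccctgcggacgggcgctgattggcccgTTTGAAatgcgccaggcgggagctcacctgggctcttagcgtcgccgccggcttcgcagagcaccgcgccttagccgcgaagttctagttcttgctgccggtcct
CDC6: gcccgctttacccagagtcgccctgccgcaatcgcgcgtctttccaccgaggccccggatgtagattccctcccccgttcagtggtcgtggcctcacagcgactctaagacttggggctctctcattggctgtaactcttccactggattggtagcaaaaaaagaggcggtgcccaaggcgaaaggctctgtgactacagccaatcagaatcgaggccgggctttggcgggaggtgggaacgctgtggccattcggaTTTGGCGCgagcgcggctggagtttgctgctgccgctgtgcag
MCM3: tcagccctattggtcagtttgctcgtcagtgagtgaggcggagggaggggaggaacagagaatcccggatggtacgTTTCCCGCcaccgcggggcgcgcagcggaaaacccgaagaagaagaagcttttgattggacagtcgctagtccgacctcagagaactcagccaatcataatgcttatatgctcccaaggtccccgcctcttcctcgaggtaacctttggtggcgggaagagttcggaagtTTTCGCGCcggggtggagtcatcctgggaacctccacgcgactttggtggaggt
HSPA5: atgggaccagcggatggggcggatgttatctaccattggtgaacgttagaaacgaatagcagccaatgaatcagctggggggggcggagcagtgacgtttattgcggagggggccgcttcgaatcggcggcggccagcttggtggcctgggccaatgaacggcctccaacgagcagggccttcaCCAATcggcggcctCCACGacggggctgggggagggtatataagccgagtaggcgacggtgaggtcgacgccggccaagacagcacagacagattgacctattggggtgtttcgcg

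TTTGAA occurred in 15 of the 23 G2 and mitosis genes that had a window (65.2%), in 1231 of 9817 tested genes with a window (12.5%) and in 15.2% of all 35116 windows. An E2F sequence occurred in 17 of 25 G1/S genes (68.0%), in 5.75% of tested genes and in 2.74% of all windows, and none of the 25 held TTTGAA. The ERSE occurred in 7 of 19 genes of the unfolded protein response (36.8%), in 0.153% of tested genes and in 0.0769% of all windows. Among members that fell, the matches were 14 of 22 for TTTGAA, 14 of 21 for E2F and 4 of 12 for the ERSE. A match of letters is not a site of binding in these cells.

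Genes of protein folding and of the integrated stress response were also lower. Of 20 genes of the unfolded protein response, 13 fell and none rose, with a median of −0.19, where 10.8% of all tested genes fell and 19.3% rose. MANF, a secreted chaperone of the endoplasmic reticulum, had 580, 564 and 594 TPM with guide 2, against 773, 765 and 780 TPM with the control guide (log2 change −0.42, SE 0.04, limma adjusted p = 0.00022). HSPA5, the chaperone BiP, fell by 0.20 to 3149 TPM, against 3607 TPM in controls, and HSP90B1, DNAJB11 and PDIA4, also of the endoplasmic reticulum, by 0.25, 0.31 and 0.26. The sensors ATF6 and ERN1 and the factor XBP1 were not called, at 0.08, 0.01 and −0.06. Of 26 targets of ATF4, the factor of the integrated stress response, 16 fell and 2 rose, with a median of −0.13. CHAC1, which degrades glutathione, fell by 0.50, PSAT1, of serine synthesis, by 0.46, SLC7A11, the cystine transporter, by 0.41, ASNS, asparagine synthetase, by 0.33, and ATF4 itself by 0.23. The 2 that rose, GDF15 and SESN2, are also on the p53 list. In TPM as deposited, 2 of the 20 and 4 of the 26 fell.

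**Figure D3:**
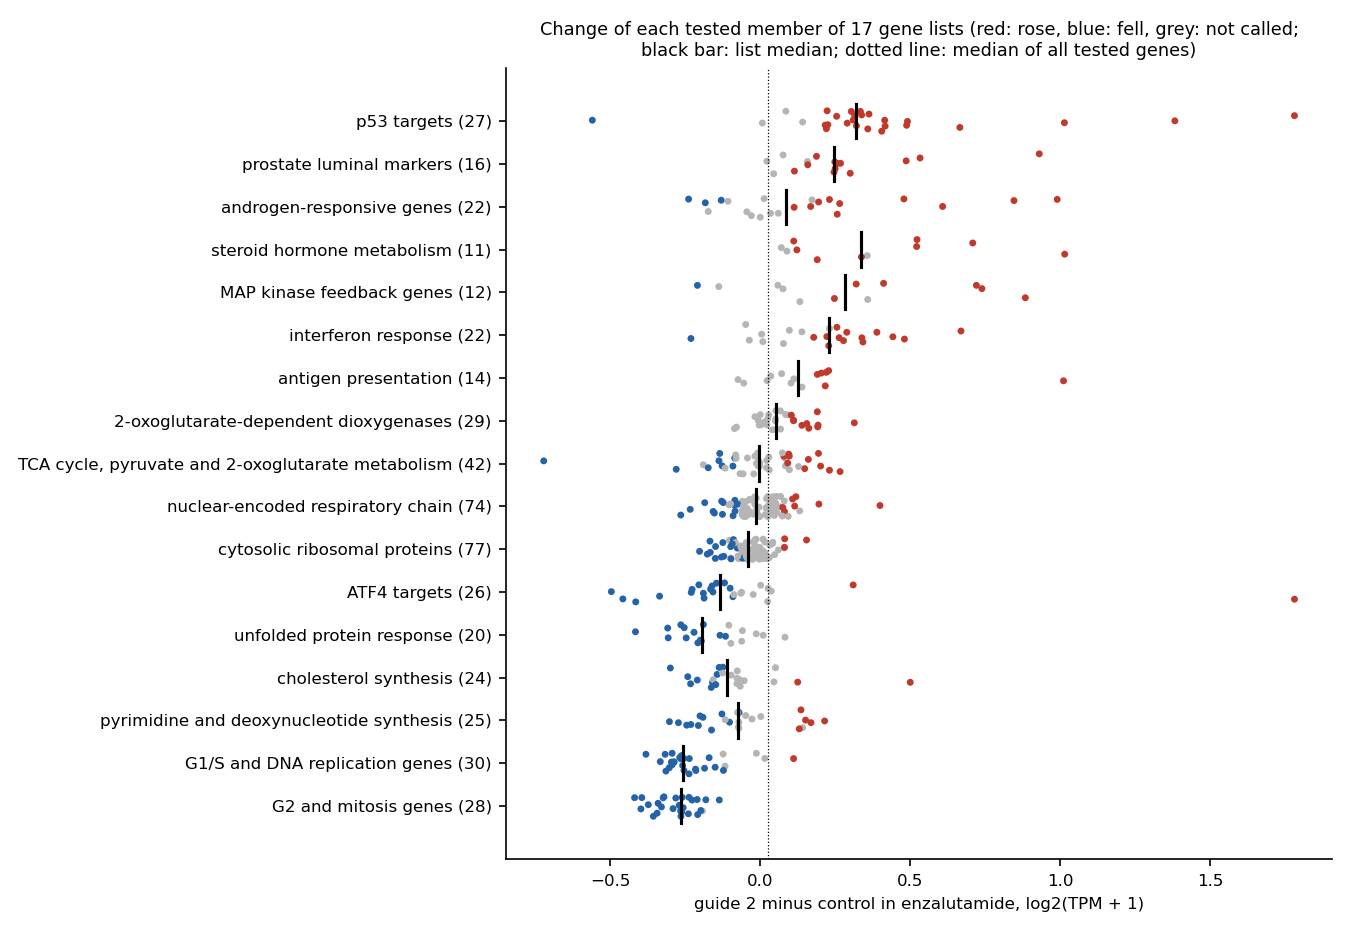
Difference between guide 2 and the control guide in enzalutamide (log2 scale) for each tested member of 17 gene lists, with the number tested in brackets; red members rose, blue members fell, grey members were not called, black bars are list medians and the dotted line is the median of all tested genes. p53 targets lie furthest to the right by their median (0.32) apart from the steroid list (0.34), and the cell cycle lists furthest to the left (−0.26 each). The steroid median was 0.16 where genes had to reach 5 TPM.

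Luminal markers and some androgen-regulated genes were higher with guide 2, in a mixed pattern. KLK3 (chr19:50854915-50860764, plus strand), which encodes prostate-specific antigen and is induced by androgen, had 321, 338 and 315 TPM with guide 2, against 164, 168 and 157 TPM with the control guide. This was 1.99 times the control level (log2 change 0.99, SE 0.04, limma adjusted p = 6.3e-06), while guide 1 had 2477 ± 104 TPM. Of 22 tested androgen-responsive genes 10 rose and 3 fell, beside 19.3% and 10.8% of all tested genes, with a median of 0.09 that was −0.01 with TPM as deposited, where 3 rose and none fell. TMPRSS2, a membrane protease, had 19.2 ± 0.582 TPM with guide 2 and 12.3 ± 0.466 TPM with the control guide, and C1orf116 had 86.1, 83.9 and 82.5 TPM with guide 2, against 48.6, 45.8 and 44.8 TPM with the control guide. KLK2, FKBP5 and SLC45A3, also androgen-responsive, were not called, at −0.04, −0.11 and 0.17. Of 6 tested genes repressed by androgen 4 rose and 1 fell: DDC, which makes dopamine, rose by 0.99, the glucuronosyltransferases UGT2B17 and UGT2B15 by 0.71 and 0.52 and CAMK2N1 by 0.48, while OPRK1 fell. Of 16 luminal markers 12 rose and none fell, with a median of 0.25. KRT19, a keratin, rose by 0.93 to a low level of 2.50 TPM, against 0.836 TPM in controls, ACP3, prostatic acid phosphatase, by 0.53 to 22.8 TPM, STEAP2, a metalloreductase, by 0.49 to 97.8 TPM, and HOXB13, a prostate homeobox factor, by 0.25. KRT19 would not have passed the filter on control libraries alone, so its rise was tied to its inclusion. FOXA1, GATA2 and FOLH1 were not called, at 0.08, 0.05 and 0.02. Of the 16 luminal markers 1 rose without rescaling.

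Of 11 tested genes of steroid hormone metabolism 8 rose and none fell, with a median of 0.34, where 19.3% of all tested genes rose and 10.8% fell. UGT2B10, UGT2B17, UGT2B28 and UGT2B15, related glucuronosyltransferases between which reads can be split, rose by 1.01, 0.71, 0.52 and 0.52. UGT2B10 and UGT2B28 were low, at 2.65 and 1.51 TPM with guide 2 and 0.810 and 0.750 TPM with the control guide. Neither would have passed the filter on control libraries alone. HSD3B1, which makes androgen precursors, rose by 0.34 to 2.52 TPM. SRD5A1 and SRD5A3 were not called, at 0.09 and 0.07. Where genes had to reach 5 TPM, 5 of 8 rose, with a median of 0.16. With no filter 9 of 22 rose, with a median of 0.08. Without rescaling 3 of the 11 rose.

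Few neuroendocrine, mesenchymal or basal genes were expressed. Of 18 neuroendocrine markers with a value, 13 were under 1 TPM in every library of each group, and INSM1 and NEUROD1, factors of that lineage, were listed at 0 in every library of these groups. NTS (chr12:85874295-85882992, plus strand), which encodes neurotensin, was the highest of the list with guide 2, with 170, 161 and 160 TPM with guide 2, against 77.3, 79.3 and 74.6 TPM with the control guide (log2 change 1.08, SE 0.05, limma adjusted p = 1.2e-05). The list summed to 245 to 256 TPM with guide 2, 81.9 to 85.9 TPM with guide 1 and 175 to 178 TPM with the control guide. NTS was at 0.0834 ± 0.0189 TPM with guide 2 and 0.0645 ± 0.0143 TPM with the control guide in vehicle. ENO2, a neuronal enolase, had 70.9 ± 0.567 TPM with guide 2, 47.5 ± 0.793 TPM with guide 1 and 85.2 ± 1.44 TPM with the control guide, above NTS in the control and guide 1 libraries, and fell by 0.26 with guide 2. SYP, ONECUT2 and POU3F2 were not called, at 0.01, −0.06 and 0.04. VIM, vimentin, rose by 0.78 to 5.80 TPM, against 2.97 TPM in controls, while FN1, fibronectin, at −0.17, and SNAI1, at −0.11, were not called. Among 15 regulators of stemness and plasticity 6 rose and 4 fell, where 19.3% of all tested genes rose and 10.8% fell. ID1 and ID3, inhibitors of basic helix-loop-helix factors, rose by 0.55 and 0.51, whereas ID2 of the same family had 91.4 TPM with guide 2 and 153 TPM with the control guide, a fall of 0.74 on the log2 scale. KLF4 rose by 0.69, EZH2 and HES1 fell by 0.14 and 0.24, and SOX9, at −0.03, was not called.

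Feedback genes of the MAP kinase pathway rose in part: 6 of 12 rose and 1 fell, against a background of 19.3% rising and 10.8% falling, with a median of 0.28. SPRY4, an inhibitor of receptor signalling, had 10.1, 9.89 and 10.4 TPM with guide 2, against 5.03, 4.72 and 5.37 TPM with the control guide (log2 change 0.88, limma adjusted p = 7.4e-05). The phosphatases DUSP4, DUSP6 and DUSP5 rose by 0.74, 0.72 and 0.41. PHLDA1 fell by 0.21, with 1.58 ± 0.0316 TPM with guide 2 and 1.98 ± 0.0326 TPM with the control guide, and EGR1 was not called at 0.13. In TPM as deposited, 3 of the 12 rose.

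Interferon-response genes were higher with guide 2. Of 22 tested, 13 rose and 1 fell, with a median of 0.23, while over all tested genes 19.3% rose and 10.8% fell. IFI6, an interferon-induced mitochondrial protein, had 28.1, 28.1 and 27.8 TPM with guide 2, against 16.8, 17.4 and 17.6 TPM with the control guide (log2 change 0.67, SE 0.04, limma adjusted p = 3.7e-05). IFIT2 and IFIT1, which bind viral RNA, rose by 0.48 and 0.34 to 3.62 and 5.08 TPM, PARP14, an ADP-ribosyltransferase, by 0.39 and STAT2, a transducer of interferon signals, by 0.29. IRF9 and IRF7, interferon regulatory factors, were not called, at 0.14 and 0.10, and IFIH1, an RNA sensor, fell by 0.23. Of 14 tested genes of antigen presentation 6 rose and none fell. HLA-DRA, a class II chain, had 5.81 TPM with guide 2 and 2.38 TPM with the control guide, B2M, the light chain of class I, rose by 0.22 to 285 TPM, and the class I heavy chains HLA-B and HLA-C were not called, at 0.14 and 0.10. Where genes had to reach 5 TPM, 6 of 12 interferon-response genes rose, and without rescaling 2 of the 22 rose.

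Metabolic lists moved little or in both directions. Of 42 tested genes of the tricarboxylic acid cycle and of pyruvate and 2-oxoglutarate metabolism 10 rose and 8 fell, with a median of −0.0033. OGDHL had the largest change of them. IDH3A, a subunit of the mitochondrial isocitrate dehydrogenase, fell by 0.28, and ACO1, the cytosolic aconitase, and IDH1, the cytosolic isocitrate dehydrogenase, rose by 0.27 and 0.23. DLST, the succinyltransferase of the 2-oxoglutarate dehydrogenase complex, rose by 0.09 and DLD, its dihydrolipoamide dehydrogenase, was not called, at 0.02. Of 29 tested genes listed for 2-oxoglutarate-dependent dioxygenases 10 rose and none fell, with a median of 0.05. With TPM as deposited the median was −0.05 and none was called. The list included P4HB, a partner subunit of prolyl hydroxylases and not a dioxygenase itself. ASPH, an aspartate hydroxylase, rose by 0.31, PHYH, which oxidises phytanic acid, by 0.19 and KDM6B, a histone H3 demethylase, by 0.19. Of 74 nuclear-encoded respiratory chain genes 7 rose and 13 fell, beside 19.3% and 10.8% of all tested genes.

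Synthesis lists had medians below 0. Of 25 genes of pyrimidine and deoxynucleotide synthesis 11 fell and 5 rose, beside 10.8% and 19.3% of all tested genes, with TYMS, thymidylate synthase, at −0.30 and RRM1, a ribonucleotide reductase subunit, at −0.27. Of 24 genes of cholesterol synthesis 10 fell and 2 rose, with a median of −0.11. SQLE, squalene epoxidase, fell by 0.30, EBP by 0.24 and HMGCS1 by 0.21, while TM7SF2, a sterol reductase, had 430, 441 and 422 TPM with guide 2, against 322, 306 and 285 TPM with the control guide (log2 change 0.50, limma adjusted p = 0.00064). With median-of-ratios scaling 16 of the 24 fell and 1 rose. Of 77 cytosolic ribosomal protein genes 16 fell and 3 rose, with a median of −0.04. With median-of-ratios scaling 25 fell and none rose, whereas with quantile normalization 11 fell and 4 rose, with a median of −0.0032 that lay 0.0031 above that of all genes. MYC fell by 0.26, with 335, 334 and 342 TPM with guide 2, against 411, 389 and 410 TPM with the control guide. None of the genes of the pyrimidine, cholesterol and ribosomal protein lists was called with TPM as deposited.

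The guides to OGDHL were then set against each other in the same fit. Guide 2 exceeded guide 1 in 5278 genes (35.7%) and was lower in 3574 (24.2%), 8852 of 14792 in all (59.8%) by limma at an adjusted p under 0.05, more than differed between guide 2 and the control guide. The filter used guide 2 and control libraries, so genes expressed with guide 1 alone were not tested. The balance also depended on scaling, with 4435 higher and 4438 lower under median-of-ratios scaling. All 28 genes of G2 and mitosis and 29 of 30 of G1/S were lower with guide 2 than with guide 1, with medians of −0.62 and −0.53 against 0.05 over all genes. Against the shared controls, the median of G2 and mitosis genes was −0.26 with guide 2 and 0.35 with guide 1, and that of G1/S genes −0.26 with guide 2 and 0.29 with guide 1. Of 27 p53 targets 22 were higher with guide 2 than with guide 1 and 2 lower, and of 20 genes of the unfolded protein response 17 were lower and 2 higher. Interferon-response genes were higher with guide 2 than with guide 1 in 18 of 22 and lower in 1, and those of antigen presentation higher in 12 of 14 and lower in 1. Androgen-responsive genes were lower with guide 2 than with guide 1 in 17 of 22 and higher in 4, with a median difference of −0.86.

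**Figure D4:**
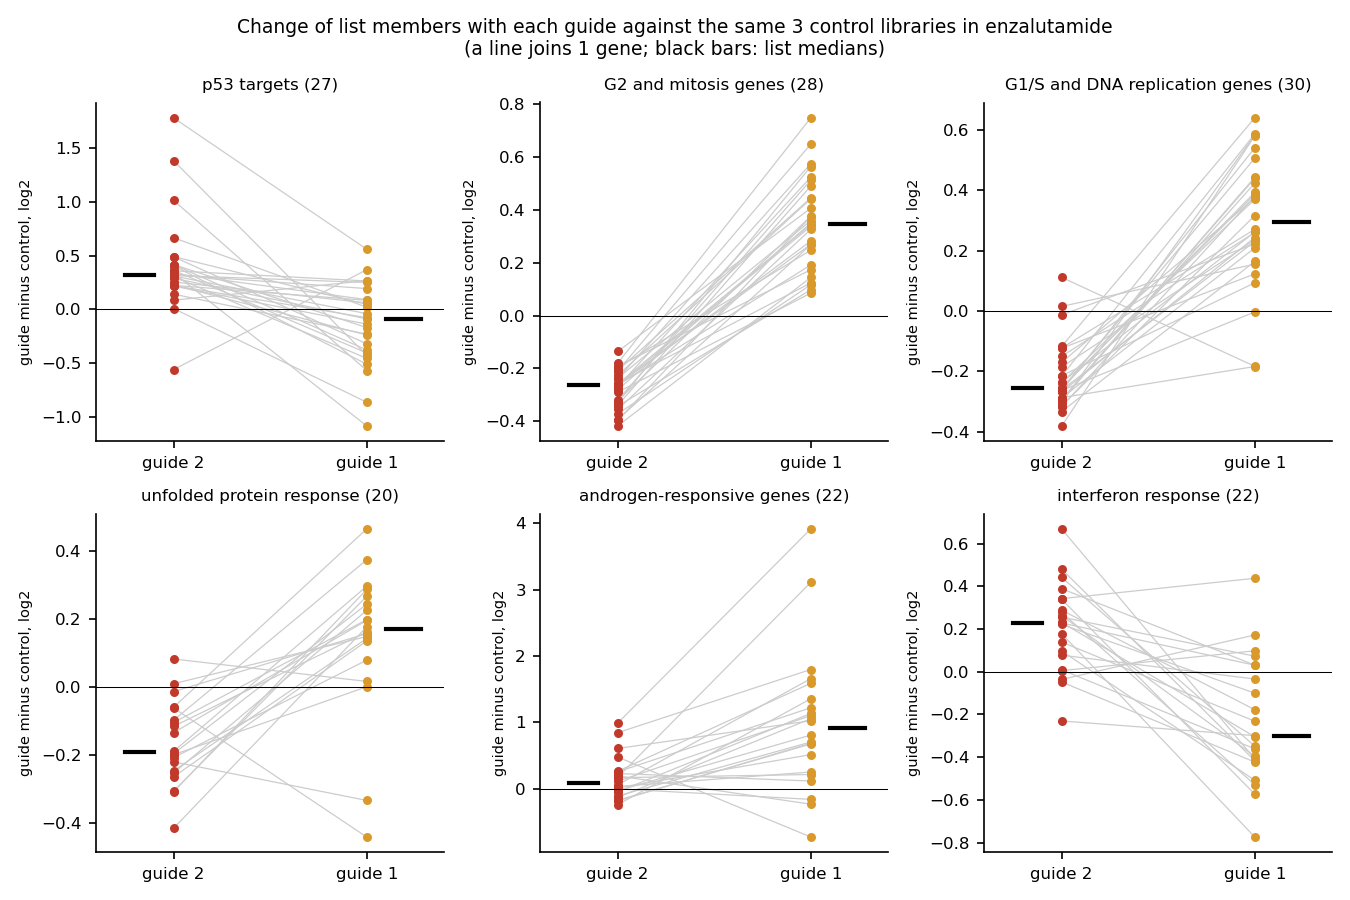
Difference from the same 3 control libraries in enzalutamide (log2 scale) with guide 2 and with guide 1, for the tested members of 6 gene lists; a line joins the values of 1 gene, black bars are list medians and each panel has its own scale. G2 and mitosis genes lie below 0 with guide 2 (median −0.26) and above it with guide 1 (median 0.35), and KLK3 is the highest point of the androgen-responsive panel.

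Single genes separated the guides by more than these medians. KLK3 was lower with guide 2 than with guide 1 by 2.93 (limma adjusted p = 7.1e-09), and SLC45A3, another androgen-responsive gene, by 2.94, with 7.97 TPM with guide 2 and 67.8 TPM with guide 1. AADAT (chr4:170060222-170091699, minus strand), an aminotransferase that uses 2-oxoglutarate, had 5.75, 6.03 and 5.93 TPM with guide 2, 64.6, 62.9 and 66.5 TPM with guide 1 and 9.41, 9.44 and 9.57 TPM with the control guide. It fell with guide 2 (log2 change −0.60) and lay far above the control libraries with guide 1. PHLDA1 had 1.58 ± 0.0316 TPM with guide 2, 36.3 ± 1.45 TPM with guide 1 and 1.98 ± 0.0326 TPM with the control guide. MAGEA1, a cancer-testis antigen, and ADAMTS1, a secreted metalloprotease, were lower with guide 2 than with guide 1 by 3.34 and 3.28. IGFBP3 (chr7:45912245-45921874, minus strand), a binding protein for insulin-like growth factors, had 612, 614 and 627 TPM with guide 2, 113, 104 and 127 TPM with guide 1 and 566, 593 and 641 TPM with the control guide, so that guide 2 and control libraries overlapped (log2 change 0.04, limma adjusted p = 0.67). LINC00161, a long non-coding RNA, was at 1.21 TPM with guide 2, 63.4 TPM with guide 1 and 1.30 TPM with the control guide. The small nuclear RNA RNVU1-7 was also among the 6 highest in guide 2 less guide 1, but its replicates ran over 2.92, 8.52 and 22.0 TPM with guide 2.

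The change with guide 2 was also compared with that in vehicle, where 3 guide 2 and 3 control libraries share none with the comparison in enzalutamide. Across the 14792 genes the changes correlated at Pearson r = 0.43 and Spearman rho = 0.48, a description across genes, which are not independent. Of the 2849 genes that rose in enzalutamide 85.2% were higher with guide 2 in vehicle, against 64.6% of all tested genes, and of the 1603 that fell 76.4% were lower there, against 35.4% of all. Of the 27 p53 targets 27 were higher with guide 2 in vehicle, with a median difference of 2.97, and of the 28 genes of G2 and mitosis 28 were lower, with a median of −2.26. For both lists the medians in vehicle lay further from 0 than those in enzalutamide, 0.32 and −0.26. SLPI differed little with guide 2 in vehicle, with 9.04 ± 1.06 TPM with guide 2 and 7.99 ± 0.515 TPM with the control guide. NTS and ADCYAP1 were barely detected in both groups in vehicle, where a fall of ADCYAP1 could not show. NTS, which rose in enzalutamide, had 0.102, 0.0840 and 0.0642 TPM with guide 2 in vehicle. With the control guide in vehicle it had 0.0547, 0.0579 and 0.0809 TPM, so the groups overlapped. LRATD1, lower with guide 2 in enzalutamide, was higher with it in vehicle, at 24.11, 24.49 and 24.97 TPM with guide 2, against 1.49, 1.48 and 1.43 TPM with the control guide.

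**Figure D5:**
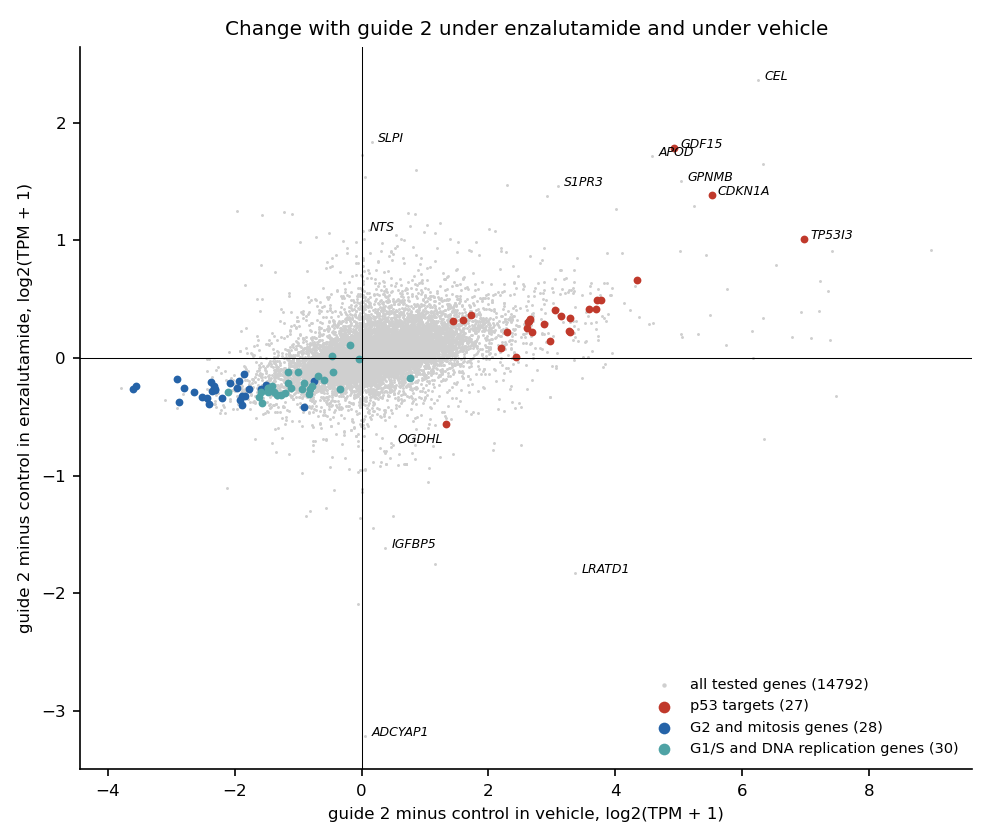
Difference between guide 2 and the control guide under enzalutamide (y axis) and under vehicle (x axis), both on the log2 scale, for 14792 tested genes in grey, with p53 targets in red, genes of G2 and mitosis in blue and of G1/S in teal. All 27 p53 targets lie to the right of 0 and all 28 genes of G2 and mitosis to the left of it. CEL, GDF15 and CDKN1A are high on both axes. SLPI, NTS and ADCYAP1 lie near 0 on the x axis, and NTS and ADCYAP1 were barely detected in vehicle.

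Genes very high in the libraries labelled guide 2 in vehicle were then looked up in enzalutamide. With at least 50 TPM there and at least 10 times the level of control libraries in vehicle, 65 tested genes qualified, of which 44 rose and none fell with guide 2 in enzalutamide, where 19.3% of all tested genes rose and 10.8% fell. The excess of guide 2 over control libraries in enzalutamide, as a percentage of the guide 2 level in vehicle, had a median of 2.48%. Genes that stayed under 1 TPM in enzalutamide were left out by the filter, so neither the count nor the median covers them. Some passed only through the guide 2 libraries, such as RNASE7, at 2.395 TPM with guide 2 and 0.0811 TPM with the control guide. For such genes a rise was tied to their inclusion. For CDKN1A the excess in the 3 guide 2 libraries was 3.79%, 4.35% and 3.68%, for GDF15 2.15%, 2.98% and 2.40%, for CEL 3.11%, 3.49% and 2.87%, and for APOD 2.35%, 2.53% and 2.28%. These 4 genes were picked from the 65 with their values in view, and others differed in this measure: it was 18.7% for PLK2, a kinase induced by p53, and 21.9% for TNFSF15, a cytokine of the TNF family, but 0.924% for SFN, 14-3-3 sigma. For the 13 genes of the SSU72P, PRAMEF, TAF11L and MBD3L families, which the transcription factor DUX4 is known to activate, the median was 0.424%, and 2 of the 13 rose. SSU72P4 had 945 TPM with guide 2 in vehicle, and 8.33 TPM with guide 2 and 4.84 TPM with the control guide in enzalutamide, which was not called. These genes are near-identical copies among which reads can be split. The guide 2 libraries in enzalutamide also had fewer rows at 0 than their controls, as the guide 2 libraries in vehicle did. Whether RNA or cells of the vehicle cultures entered the enzalutamide libraries was not tested.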

How the data were processed

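RNA was prepared with a kit that enriches mRNA and keeps strand, per the labels' protocols. Reads were aligned with STAR to GRCh38, per the submitters' processing notes, and the sources used here do not give the counting tool. Values were deposited as TPM per gene and library, in 37347 rows for 18 libraries. Of these rows, 10345 had no gene name and 37 were mitochondrial. Both were removed, 3 symbols on 5 or more rows (69 rows) were dropped, 32 symbols on fewer rows were summed, and each library was rescaled to 1000000.

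log2(TPM + 1) was fitted with limma 3.58.1 in R 4.3.3 (trended empirical Bayes) to the 9 enzalutamide libraries with a mean for each of 3 groups and 6 residual degrees of freedom. Genes needed 1 TPM in 3 of the 6 libraries of guide 2 and control. Two-sided p-values were adjusted by Benjamini-Hochberg over 14792 genes and called under 0.05. The fit was tested on simulated data with 200 changed genes. Guide 2 less guide 1 came from the same fit; levels in vehicle were described without a test. Named genes were the 15 largest rises and falls among called genes whose groups did not overlap and averaged 5 TPM or more in one of them, up to 4 called members of each of 35 gene lists, the 6 highest and 6 lowest in guide 2 less guide 1, 8 genes chosen for the study's question and the 8 tested neighbours of OGDHL, 158 in all, of which a few are not reported here; list members outside that rule were picked with their values in view. The members and lists were chosen with earlier results of these data known. GENCODE 29 placed 13622 of the tested symbols. Alternatives were other pseudocounts, filters, scalings, library sets, weights, a replicate block and leaving out each library.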

Additional observations from a re-analysis of the deposited data

Results flagged for a closer look

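Some named genes moved one way with guide 2 and the other way with guide 1 in enzalutamide, and the difference between the guides passed limma's test at an adjusted p under 0.05. Both changes are taken against the same 3 control libraries. Over all tested genes 1674 were called in opposite directions for the guides, 61 of them among the 158 named, and those described here had a change of at least 0.5 in both. NTS, the neurotensin gene, changed by 1.08 with guide 2 and −1.72 with guide 1, a difference of 2.80 (limma adjusted p = 2.4e-08). SLPI changed by 1.83 with guide 2 and −0.50 with guide 1, a difference of 2.34, and S1PR3 by 1.46 with guide 2 and −0.62 with guide 1, a difference of 2.08. In each of these genes guide 2 libraries were the highest and guide 1 libraries the lowest of the 3 groups. Smaller differences of the same sign were 1.67 for SPRY4, 1.58 for TP53I3, 1.51 for DDC, 1.25 for DUSP6, 1.24 for TM7SF2 and 1.20 for UGT2B15. AADAT went the other way, at −0.60 with guide 2 and 2.65 with guide 1, a difference of −3.25 (limma adjusted p = 2.9e-10), as did LUM, lumican, at −0.54 with guide 2 and 0.87 with guide 1, a difference of −1.41. LUM was low, at 0.474, 0.574 and 0.508 TPM with guide 2 and 1.29, 1.11 and 1.20 TPM with the control guide. It passed the filter through the control libraries alone, so its fall with guide 2 was tied to its inclusion.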

How the results depend on the processing

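For guide 2 against the control guide in enzalutamide, 533 genes were called with TPM as deposited, 520 of them among the 4452, and 2620 with all 18 libraries in the fit. For guide 2 less guide 1, TPM as deposited gave 3701 calls. The deposited scale shifted the median of all genes to −0.07, and with it 72 of 158 named genes lost their call and 3 turned: ATIC to −0.0186, GART to −0.0194 and WASHC2A to −0.0024. Before rescaling, the kept rows summed to 411845, 318640 and 347207 TPM in the control libraries. With guide 2 they summed to 340677, 303417 and 336220 TPM, and the rescaling removes this difference. Why the totals differed was not tested. Leaving out each library in turn gave 3063 to 3811 calls against the control guide and 7885 to 8416 against guide 1. A replicate block gave 4750 calls against the control guide and 9118 against guide 1. Deviations of same-numbered guide 2 and control libraries correlated at −0.01, 0.06 and −0.03, so the numbers were not taken as pairs. Without a filter 5347 genes were called, and with a filter at 5 TPM 3309. For guide 2 less guide 1, median-of-ratios scaling gave 4435 higher and 4438 lower, and quantile normalization 4228 higher and 4532 lower. With 3 libraries a group, no record of depth and 1 control guide, an effect of guide 2 cannot be told apart from a difference between these cultures.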

Other observations

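Other gene groups are given beside the background of all tested genes, of which 19.3% rose and 10.8% fell. Of 21 tested genes of glycolysis 7 fell and 3 rose with guide 2 against the control guide in enzalutamide, with a median of −0.08. LDHA and LDHB, the lactate dehydrogenase subunits, fell by 0.27 and 0.32, LDHA to 311 TPM with guide 2, against 376 TPM with the control guide. Of 25 genes of ribosome biogenesis 8 fell and 1 rose, and POLR1A, the largest subunit of RNA polymerase I, was the one that rose, by 0.22. Of 13 heat shock protein genes 3 fell and none rose, HSP90AA1 to 427 TPM with guide 2, against 490 TPM with the control guide. Among 33 mitochondrial carriers of the SLC25 family 8 rose and 4 fell, shares near the background, with SLC25A29, a carrier of basic amino acids, at 15.2 TPM with guide 2 and 11.3 TPM with the control guide. SHMT2 and MTHFD2, enzymes of mitochondrial one-carbon metabolism, fell by 0.23 and 0.16. Of 16 genes of fatty acid synthesis 4 rose and 3 fell. Of 8 tested genes of the glucocorticoid receptor and its targets 3 rose and 1 fell, with a median of 0.08, and none rose with TPM as deposited. NR3C1, the receptor, fell by 0.35 to 1.49 TPM with guide 2, against 2.18 TPM with the control guide, DUSP1, KLF9 and ZBTB16 rose by 0.50, 0.27 and 0.14, and FKBP5, TSC22D3, PER1 and CEBPD were not called, at −0.11, 0.05, 0.05 and 0.11. Of 6 tested genes of the NF-kB response 3 rose and none fell, with BIRC3, an inhibitor of apoptosis, at 2.43 TPM with guide 2 and 1.33 TPM with the control guide.

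Changes were not spread evenly over the chromosomes. Among 9179 genes with a mean of at least 5 TPM and a place in GENCODE release 29, 19.7% rose and 12.9% fell. On chromosome 15, 35.4% of 288 genes fell and 11.1% rose, with a median of −0.07, against 0.02 over all chromosomes. KIF23, which fell by 0.40, lies between 60 and 70 Mb there, where 50% of 40 genes fell, with a median of −0.10. Of 215 windows of 10 Mb with at least 15 such genes, the 3 highest medians were adjacent, on chromosome 2 from 60 to 90 Mb, where 63.3% to 64.0% of the genes in each window rose by medians of 0.15 to 0.16. In another window of that chromosome, from 20 to 30 Mb, 66.0% of 50 genes rose. On chromosome 8, genes from 10 to 20 Mb and from 30 to 40 Mb rose in 56.2% and 59.3%, and the lowest medians of all windows were from 120 to 130 Mb (−0.14) and from 90 to 100 Mb (−0.12) on the same chromosome. In the 3 windows of chromosome 2 the medians with guide 1, against the same controls, were 0.19, 0.18 and 0.04. On chromosome 8 they were 0.25 from 10 to 20 Mb and 0.24 from 30 to 40 Mb with guide 1. From 90 to 100 Mb and from 120 to 130 Mb there, they were −0.04 and −0.12. The guide 1 median of chromosome 15 was −0.0005. For guide 2 minus control in vehicle, the median of chromosome 15 was 0.22, against 0.18 over all chromosomes. In the 3 windows of chromosome 2 the vehicle medians were 0.33, 0.13 and 0.15. On chromosome 8 they were −0.10 from 10 to 20 Mb, 0.22 from 30 to 40 Mb, 0.12 from 90 to 100 Mb and 0.18 from 120 to 130 Mb. Copy number was not tested.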
